A study of Homo sapiens with 12 samples.

Results

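ADAMTS proteases are secreted zinc metalloproteases that cut proteins of the extracellular matrix. The 8 genes described here are ADAMTS1, ADAMTS2, ADAMTS5, ADAMTS6, ADAMTS9, ADAMTS12, ADAMTS19 and ADAMTSL1, which were selected on their gene symbols with earlier results of the same libraries in view. They are 8 of the 26 ADAMTS family genes in the count table and 8 of its 20434 genes with at least 1 count. Their levels are therefore a description, and the adjusted p-values beside them are not independent evidence of a change.

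RNA was sequenced from WI-38, an established line of human lung fibroblasts without a genetic change, in 12 flasks. The D1 flasks were untreated and harvested at 1 day, and the D1+TGF-β flasks had been exposed for 1 day to TGF-β at 2 ng/mL, the cytokine that turns fibroblasts into contractile myofibroblasts. The D20 flasks were kept for 20 days without the cytokine, and the D20+TGF-β flasks for 20 days with 2 ng/mL of it. Each condition had 3 sequenced flasks, taken from 5 on RNA quantity and quality. Cells were at passages 2 to 3 at D1 and 5 to 6 at D20. The D1 flasks were grown to confluence before treatment. The D20 flasks were seeded afresh on day 1, in numbers meant to bring them near confluence on day 20. Time in culture, passage, reseeding and cell density therefore cannot be told apart. All flasks of a D20 condition were seeded from 1 parent flask, and p-values therefore measure only the spread between flasks.

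ADAMTS enzymes are made with a propeptide that convertases such as furin remove, and their thrombospondin repeats bind them to the matrix around the cell. A branch named for the large hyaluronan-binding proteoglycans, with ADAMTS1, ADAMTS5 and ADAMTS9, cuts versican and aggrecan, and another branch, with ADAMTS2, removes the amino-terminal propeptide of fibrillar procollagens. ADAMTS-like proteins such as ADAMTSL1 keep the repeats but have no protease domain. TIMP3 is the main tissue inhibitor of several of these enzymes.

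The catalytic zinc is held by 3 histidines in a motif of histidine, glutamate, any 2 residues, histidine, any 5 residues and histidine. The coding sequence of this motif is shown because it separates the 7 proteases from ADAMTSL1. A search of 1 coding transcript per gene on GRCh37 found it once in each of the 7 proteases and in none of the 1762 codons of ADAMTSL1. In all 7 proteases an intron interrupts its 33 bases, so that the genomic span is longer than the sequence. Of the 33 bases, 12 were identical in all 7 genes. Capitals mark the codons of the 3 histidines in ADAMTS19 (chr5:128932341-128956326, plus strand), ADAMTS6 (chr5:64595943-64625221, minus strand), ADAMTS2 (chr5:178581178-178581831, minus strand) and ADAMTS12 (chr5:33649787-33658305, minus strand).
ADAMTS19: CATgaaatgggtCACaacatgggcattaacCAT
ADAMTS6: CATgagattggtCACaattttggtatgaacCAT
ADAMTS2: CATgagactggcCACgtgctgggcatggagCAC
ADAMTS12: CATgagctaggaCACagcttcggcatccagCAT

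Library totals were 8674488 to 18286197 counts with a median of 11613084.5. Levels are given in cpm, counts per 1000000 counts of the genes tested after scaling for composition. A gene was tested if it reached 10 cpm in at least 6 of the 12 libraries, which 9490 genes did. A gene is called higher or lower where edgeR's quasi-likelihood test gave an adjusted p under 0.01 over all genes tested. Of the 8 members, 7 passed this filter. ADAMTS1, ADAMTS2, ADAMTS12 and ADAMTS19 reached 10 cpm in all 12 libraries, ADAMTSL1 in 8, ADAMTS5 in 7 and ADAMTS9 in 6, the least that passes. ADAMTS6 reached it in 4 libraries and was tested only in a fit without a gene filter, over 20434 genes. ADAMTS5, ADAMTS9 and ADAMTSL1 thus passed through the conditions in which they were high. Adjusted p-values of the fits with and without a gene filter cannot be ranked against each other. In D20+TGF-β against D20, ADAMTS1 had an edgeR adjusted p of 2.58e-06 with the filter and 5.34e-11 without it. Its standard errors there were 0.20 and 0.16.

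A pair of libraries stood apart from the others of their condition. D20+TGF-β replicate 3 differed from replicates 1 and 2 by a root mean square of 0.297 and 0.291 log2 units, against 0.140 between those 2. D1 replicate 2 differed from replicates 1 and 3 by 0.343 and 0.327, against 0.224 between the others, and the pairs of the remaining conditions differed by 0.117 to 0.156. The summed level of 8 fibroblast markers was 13652 to 23171 cpm over all libraries. Its members differed at D20, where COL1A1 and COL1A2 were higher in every treated flask. THY1 was lower there, at 290 to 314 cpm against 632 to 732, as was DCN, at 476 to 553 against 879 to 1122. The other fibroblast markers overlapped. The sum of 5 epithelial markers was at most 0.683 cpm with KRT5 at 0 throughout, and that of 4 endothelial markers at most 2.63 cpm with CDH5 at 0 throughout. The sum of 3 immune markers was 5.63 to 6.36 cpm in D20 and at most 0.629 cpm elsewhere. Nearly all of it was CD14, at 5.43 to 6.30 cpm in D20, and CD3E was at 0 in all 12 libraries. Of 4 myofibroblast and smooth muscle markers, ACTA2, the smooth muscle actin, was at 125 to 229 cpm in D1 and 692 to 850 in D1+TGF-β. It was at 277 to 297 cpm in D20 and 285 to 357 in D20+TGF-β, so that its RNA overlapped between these flasks. TAGLN and MYH11 overlapped at D20 too. CNN1 was lower in every treated flask there, at 36.27 to 45.03 cpm against 53.06 to 53.49. At D1 TAGLN and CNN1 were, like ACTA2, higher in every treated flask, and MYH11 overlapped. In such bulk RNA, fewer cells that use a gene and less RNA per cell cannot be told apart.

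**Figure D1:**
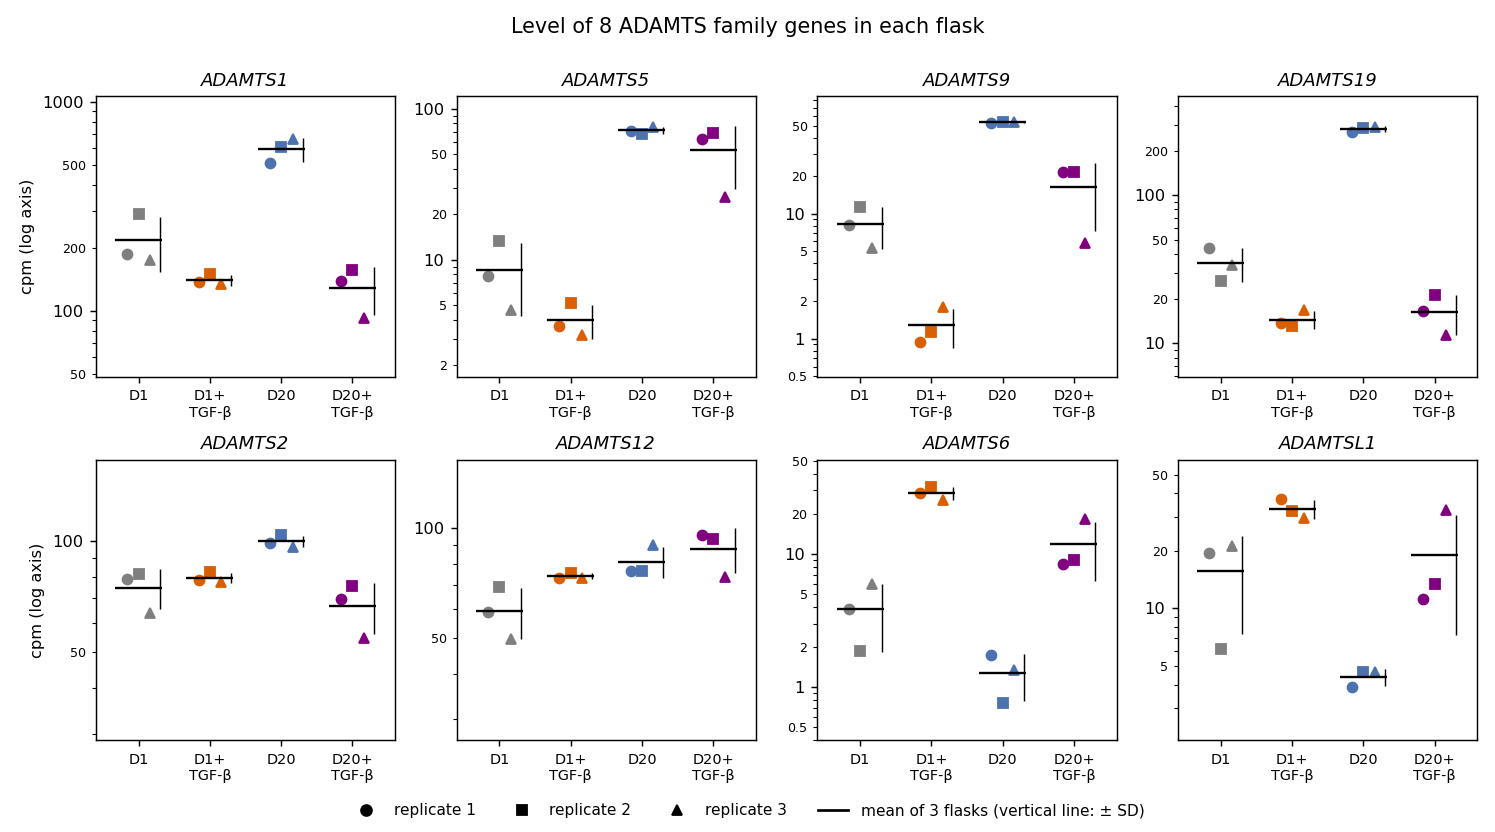
Level of each of the 8 genes in each flask, in cpm on a log axis with a separate range per gene, for the 4 conditions. Points are flasks with their replicate number, horizontal lines the mean of 3 flasks and vertical lines ± SD. ADAMTS1, ADAMTS5, ADAMTS9 and ADAMTS19 were at their highest means in D20, at 593, 71.7, 53.5 and 280.2 cpm, and ADAMTS6 and ADAMTSL1 were at their lowest there, at 1.28 and 4.39 cpm.

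The largest difference of the set was that of ADAMTS19 (Entrez 171019, GRCh37 chr5:128795974-129074376, plus strand), a protease without a well-established substrate that is needed for normal heart valves. Its level was 44.2, 26.4 and 34.0 cpm in the 3 D1 flasks and 13.6, 13.0 and 16.7 cpm in the D1+TGF-β flasks. After 20 days it was 268, 282 and 290.5 cpm without TGF-β and 16.4, 21.2 and 11.3 cpm with it. Every untreated flask lay above every treated flask at both times, and the D20 flasks stood above all others, while the treated flasks of D1 and D20 overlapped. In D20+TGF-β, ADAMTS19 RNA was 17.2-fold lower than in D20 (log2 fold change −4.11 ± 0.20 SE, edgeR adjusted p = 7.40e-09). At D1 the treated flasks were 2.43-fold lower (−1.28 ± 0.20, edgeR adjusted p = 0.000497). D20 exceeded D1 by 8.08-fold (3.01 ± 0.18, edgeR adjusted p = 8.66e-08), whereas the treated conditions differed by 0.19 ± 0.22 log2 units (edgeR adjusted p = 0.491), a difference that turned to −0.018 without D20+TGF-β replicate 2. ADAMTS19-AS1 overlaps the gene on the opposite strand, and how the count treated strand is not given in the sources used here, so that reads of the pair may not be separated.

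The promoter of ADAMTS19 is shown with that of ADAMTS6 because these members moved in opposite directions with TGF-β. Each window holds 300 bases around the start of the gene in RefSeq on GRCh38.p14, and 5 of the 8 members had an entry (ADAMTS2, ADAMTS6, ADAMTS12, ADAMTS19 and ADAMTSL1). Both strands were searched for CAGAC, the binding element of SMAD proteins that carry the TGF-β signal, which 45.3% of 35116 promoters of this length held, and for TGANTCA, the element of AP-1 factors, which 7.71% of them held. No window of a member held both, so that the motifs did not overlap. CAGAC was found once in each of ADAMTS19, ADAMTS6 and ADAMTSL1 and TGANTCA once in ADAMTS12, with no match to either in ADAMTS2. A short motif that so many promoters hold is a description of the letters only. Capitals mark CAGAC in the windows of ADAMTS19 (chr5:129460048-129460347, plus strand) and ADAMTS6 (chr5:65481871-65482170, minus strand).
ADAMTS19: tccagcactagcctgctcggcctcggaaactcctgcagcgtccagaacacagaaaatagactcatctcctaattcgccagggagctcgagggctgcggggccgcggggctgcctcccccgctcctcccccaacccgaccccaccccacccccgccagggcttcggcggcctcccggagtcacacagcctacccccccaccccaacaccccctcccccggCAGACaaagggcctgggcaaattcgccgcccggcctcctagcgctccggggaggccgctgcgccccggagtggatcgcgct
ADAMTS6: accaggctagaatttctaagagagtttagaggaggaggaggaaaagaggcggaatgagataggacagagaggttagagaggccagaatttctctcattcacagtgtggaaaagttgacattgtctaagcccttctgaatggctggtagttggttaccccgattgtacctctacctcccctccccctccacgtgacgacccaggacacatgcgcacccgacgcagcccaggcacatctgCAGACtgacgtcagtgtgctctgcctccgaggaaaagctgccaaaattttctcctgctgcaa

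ADAMTS1 (Entrez 9510, GRCh37 chr21:28208074-28217728, minus strand), which cuts versican and aggrecan, had the highest level of the 8 genes per kilobase of exon in every condition, at 29.7 cpm per kb in D1, 19.2 in D1+TGF-β, 81.3 in D20 and 17.7 in D20+TGF-β. Its D1 flasks were at 186, 291 and 174 cpm and its D1+TGF-β flasks at 137, 149.7 and 134 cpm. At D20 the untreated flasks were at 510.3, 607 and 663 cpm and the treated flasks at 139, 156 and 92.1 cpm. The D20 flasks stood above all others and the treated flasks of both times overlapped. ADAMTS1 fell 4.60-fold in D20+TGF-β against D20 (log2 fold change −2.20 ± 0.20, edgeR adjusted p = 2.58e-06) and rose 2.73-fold from D1 to D20 (1.45 ± 0.20, edgeR adjusted p = 4.83e-05). At D1 the 3 treated flasks lay below the 3 untreated flasks, with a log2 fold change of −0.63 ± 0.20 that missed the threshold (edgeR adjusted p = 0.0337). Without D1 replicate 2, the highest untreated flask, this value was −0.35 (edgeR adjusted p = 0.114), and in the fit without a gene filter it passed (edgeR adjusted p = 0.00513). It passed in 5 of 22 alternatives, also by DESeq2 (adjusted p = 0.00751) and with the 48 lanes as samples, which repeat the same RNA. The others were the fits without D20+TGF-β replicate 3 (edgeR adjusted p = 0.00970) and without both libraries that stood apart (−0.35, edgeR adjusted p = 0.00531).

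ADAMTS5 (Entrez 11096, GRCh37 chr21:28290241-28339407, minus strand), the aggrecanase best known from cartilage loss in arthritis, lies 72512 bases from ADAMTS1 on the same strand. Its level was 7.82, 13.3 and 4.68 cpm in D1, 3.66, 5.16 and 3.20 cpm in D1+TGF-β, 71.6, 68.3 and 75.3 cpm in D20 and 63.4, 69.5 and 26.2 cpm in D20+TGF-β. All D20 flasks, treated or not, lay above all D1 flasks, while treated and untreated flasks overlapped at each time. ADAMTS5 rose 8.15-fold from D1 to D20 (log2 fold change 3.03 ± 0.34, edgeR adjusted p = 1.01e-05) and 12.6-fold between the treated conditions (3.65 ± 0.39, edgeR adjusted p = 1.08e-05). The 2 comparisons of treated with untreated flasks missed the threshold, at −1.06 ± 0.45 at D1 (edgeR adjusted p = 0.101) and −0.43 ± 0.30 at D20 (edgeR adjusted p = 0.262). The latter was −0.11 without D20+TGF-β replicate 3, the flask at 26.2 cpm, and the former −0.55 without D1 replicate 2. The neighbours on chromosome 21 thus differed in what the flasks showed at D20, with ADAMTS1 lower in every treated flask and ADAMTS5 overlapping.

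ADAMTS9 (Entrez 56999, GRCh37 chr3:64501330-64673676, minus strand), a large enzyme that cuts versican at the cell surface, was at 8.16, 11.3 and 5.28 cpm in D1 and at 0.946, 1.13 and 1.78 cpm in D1+TGF-β, where the libraries held 8 to 20 counts of it. In D20 it was at 53.3, 53.5 and 53.9 cpm, and in D20+TGF-β at 21.4, 21.5 and 5.83 cpm. Treated flasks lay below untreated flasks at both times, and the descending order of D20, then D20+TGF-β, then D1 and last D1+TGF-β had an overlap only between D20+TGF-β replicate 3 and D1. ADAMTS9 fell 6.65-fold with TGF-β at D1 (log2 fold change −2.73 ± 0.54, edgeR adjusted p = 0.00255) and 3.25-fold at D20 (−1.70 ± 0.32, edgeR adjusted p = 0.000779). It rose 6.39-fold from D1 to D20 (2.68 ± 0.34, edgeR adjusted p = 2.42e-05) and 13.1-fold between the treated conditions (3.71 ± 0.50, edgeR adjusted p = 6.05e-05). The call at D1 was lost without D1+TGF-β replicate 1 or 2 (edgeR adjusted p = 0.0129 and 0.0248), and the D20 value was −1.32 without D20+TGF-β replicate 3. ADAMTS9-AS1 and ADAMTS9-AS2 lie on the opposite strand. ADAMTS9-AS2 was counted 0 to 13 times per library against 8 to 880 for ADAMTS9.

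ADAMTS2 (Entrez 9509, GRCh37 chr5:178537854-178772462, minus strand), the main enzyme that trims the amino end of procollagen I, varied much less. The D1 flasks were at 79.0, 81.3 and 63.9 cpm, the D1+TGF-β flasks at 78.7, 82.4 and 77.6 cpm, the D20 flasks at 99.2, 104 and 96.8 cpm and the D20+TGF-β flasks at 69.6, 75.4 and 54.7 cpm. The D20 flasks stood above all others, the treated D20 flasks lay below the treated D1 flasks, and the D1 flasks overlapped with both treated conditions. ADAMTS2 fell 1.50-fold in D20+TGF-β against D20 (log2 fold change −0.59 ± 0.11, edgeR adjusted p = 0.000820). Its difference at D1 was 0.09 ± 0.11 (edgeR adjusted p = 0.587). From D1 to D20 it rose 1.34-fold (0.42 ± 0.11, edgeR adjusted p = 0.00589). This call was lost without D1 replicate 3 or any D20 flask, with adjusted p-values up to 0.0275, and in 3 other settings of the fit, with up to 0.0155. The other procollagen amino-proteinases were far lower per kilobase of exon: in D20, ADAMTS2 was at 11.1 cpm per kb, ADAMTS14 at 0.944 and ADAMTS3 at 0.476.

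ADAMTS12 (Entrez 81792, GRCh37 chr5:33523640-33892124, minus strand), which cuts cartilage oligomeric matrix protein, varied as little. It was at 59.0, 69.0 and 49.9 cpm in D1, 73.2, 75.4 and 73.2 cpm in D1+TGF-β, 76.2, 76.4 and 90.0 cpm in D20 and 96.0, 93.5 and 73.6 cpm in D20+TGF-β. The D1 flasks lay below all others and the D20 flasks above those of D1+TGF-β, and the flasks of D20+TGF-β overlapped with both of these conditions. Of its comparisons, D20 against D1 passed the test (1.36-fold higher, log2 fold change 0.45 ± 0.12, edgeR adjusted p = 0.00711). The call was lost without any of 8 libraries, D1 replicates 1 and 3, each D1+TGF-β flask and each D20 flask, with adjusted p-values of 0.0111 to 0.0427, and in 3 other settings of the fit, with up to 0.0194. With TGF-β the difference was 0.32 ± 0.12 at D1 (edgeR adjusted p = 0.0735) and 0.12 ± 0.12 at D20 (edgeR adjusted p = 0.458). Without D1 replicate 2 the former was 0.45 and passed (edgeR adjusted p = 0.00911).

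ADAMTS6 and ADAMTSL1 were the members whose RNA was higher with TGF-β. ADAMTS6 (Entrez 11174, GRCh37 chr5:64444565-64777747, minus strand) is the nearest relative of ADAMTS10, a protease of fibrillin microfibrils. It was at 3.87, 1.86 and 5.96 cpm in D1, 28.8, 31.6 and 25.5 cpm in D1+TGF-β, 1.75, 0.759 and 1.35 cpm in D20 and 8.35, 8.94 and 18.3 cpm in D20+TGF-β. No flasks of different conditions overlapped, in the order D1+TGF-β, D20+TGF-β, D1 and D20. In the fit without a gene filter ADAMTS6 rose 7.49-fold with TGF-β at D1 (log2 fold change 2.90 ± 0.27, edgeR adjusted p = 1.11e-08) and 9.32-fold at D20 (3.22 ± 0.34, edgeR adjusted p = 3.45e-08). It fell 3.16-fold from D1 to D20 (−1.66 ± 0.39, edgeR adjusted p = 0.00156) and 2.54-fold between the treated conditions (−1.34 ± 0.24, edgeR adjusted p = 8.45e-05). The highest treated D20 flask was replicate 3, without which the D20 response was 2.77. Without D1 replicate 3 the fall from D1 to D20 was −1.21 and missed the threshold (edgeR adjusted p = 0.0295), as it did by limma-voom (adjusted p = 0.0540) and with the filterByExpr filter (edgeR adjusted p = 0.0128), and by DESeq2 the fall between the treated conditions missed it (adjusted p = 0.0138).

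ADAMTSL1 (Entrez 92949, GRCh37 chr9:17906561-18910948, plus strand), also called punctin, was at 19.6, 6.11 and 21.1 cpm in D1, 37.2, 32.1 and 29.9 cpm in D1+TGF-β, 3.88, 4.63 and 4.65 cpm in D20 and 11.1, 13.5 and 32.7 cpm in D20+TGF-β. Treated flasks lay above untreated flasks at both times and D20 lay below all other conditions, while the remaining neighbours in the order overlapped through D1 replicate 2, at 6.11 cpm, or D20+TGF-β replicate 3, at 32.7 cpm. ADAMTSL1 rose 4.23-fold with TGF-β at D20 (log2 fold change 2.08 ± 0.47, edgeR adjusted p = 0.00304) and fell 3.46-fold from D1 to D20 (−1.79 ± 0.47, edgeR adjusted p = 0.00647). At D1 the difference was 1.11 ± 0.39 (edgeR adjusted p = 0.0562), and between the treated conditions −0.82 ± 0.39 (edgeR adjusted p = 0.0970). Without D20+TGF-β replicate 3 the D20 response was 1.45 and just missed the threshold (edgeR adjusted p = 0.0107), as it did without any D20 flask (up to 0.0132), and the difference between the treated conditions was −1.44 and passed (edgeR adjusted p = 0.00300). The call of D20 against D1 was lost without D1 replicate 1 or 3 or any D20 flask, with adjusted p-values of 0.0206 to 0.0356, and both calls were lost by limma-voom (adjusted p = 0.0119 and 0.0280). Without both libraries that stood apart, the 4 differences were 0.70, 1.46, −1.46 and −2.21 and all passed.

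**Figure D2:**
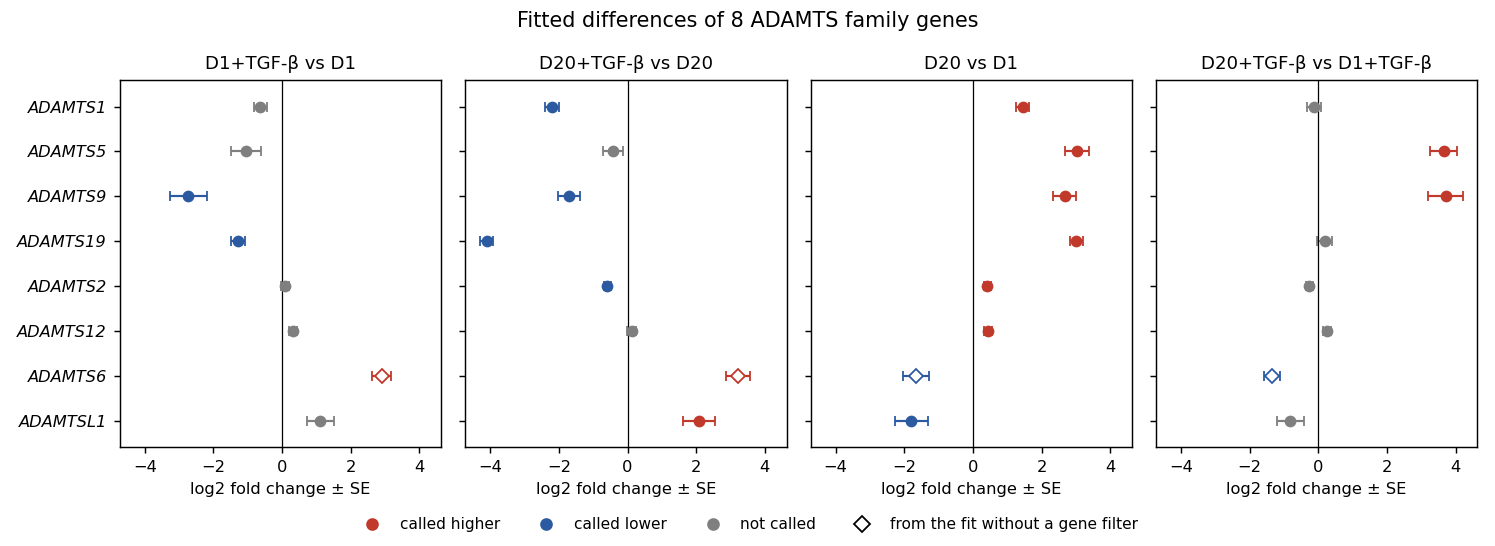
Log2 fold change with its standard error for the 8 genes in the 4 comparisons of conditions. Red marks genes called higher, blue genes called lower and grey genes not called at an adjusted p under 0.01, and open diamonds are from the fit without a gene filter. ADAMTS19 lay at −4.11 in D20+TGF-β against D20 and at 0.19 between the treated conditions, and ADAMTS6 at 2.90 and 3.22 with TGF-β.

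Counted over the members, TGF-β at D1 gave 2 calls among 7 tested, ADAMTS9 and ADAMTS19, both lower. Of all 9490 genes, 13.4% were called in that comparison, 6.89% higher and 6.50% lower. At D20 it gave 5 calls among 7, with ADAMTSL1 higher and ADAMTS1, ADAMTS2, ADAMTS9 and ADAMTS19 lower, where 27.5% of all genes were called, 12.8% higher and 14.7% lower. The members had been picked with such results known, so that the counts describe them and nothing is read from their excess. The median log2 fold change of the 7 was −0.63 at D1 and −0.59 at D20, against −0.02 and 0.01 over all genes tested. In the fit without a gene filter, 4 of 8 members were called at D1 and 6 of 8 at D20, where 8.30% and 17.1% of 20434 genes were called.

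In D20 against D1, 7 of 7 members were called, ADAMTSL1 lower and the other 6 higher. This count fell to 4 without D1 replicate 3 or any 1 of the D20 flasks. The share of all genes called was not counted in those fits. ADAMTS5 and ADAMTS9 passed the filter mostly through flasks of D20 and D20+TGF-β. ADAMTS6, which was lower in D20 than in D1, did not pass it. The filter thus partly set which members the comparisons of times counted. Over all genes 36.4% were called in this comparison, 18.9% higher and 17.6% lower. Between the treated conditions, ADAMTS5 and ADAMTS9 were called, both higher, where 34.8% of all genes were called, 17.2% higher and 17.7% lower. The median of the 7 members was 1.45 without TGF-β and 0.19 with it, against 0.01 over all genes in both. Without a gene filter, 7 of 8 members were called in D20 against D1, 5 higher and 2 lower. Between the treated conditions 3 of 8 were called, 2 higher and 1 lower. In these comparisons 22.0% and 21.2% of all genes were called. The 4 comparisons share their conditions in pairs, so that a high D20 level alone enters 2 of them.

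The flasks of the compared conditions did not overlap for 5 of 7 members in D1+TGF-β against D1, 5 of 7 in D20+TGF-β against D20, 3 of 7 in D20+TGF-β against D1+TGF-β and 7 of 7 in D20 against D1. Over all genes tested the share without overlap was 36.4%, 58.3%, 63.2% and 55.6% in the same order. With 7 members, picked with earlier results known, nothing about the members is read from these counts.

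Whether TGF-β acted differently on the 2 days was tested by the difference of the responses. It was called for 3 of 7 members, all more negative at D20: ADAMTS19 by −2.83 ± 0.28 log2 units (edgeR adjusted p = 2.73e-05), ADAMTS1 by −1.57 ± 0.28 (edgeR adjusted p = 0.00180) and ADAMTS2 by −0.68 ± 0.16 (edgeR adjusted p = 0.00760). Over all genes 10.4% were called, 4.51% with a more positive and 5.87% with a more negative response at D20, and without a gene filter 3 of 8 members and 6.43% of all genes. In these 3 genes the untreated level was higher in D20 than in D1, while the levels of the treated conditions did not differ by the test. The call of ADAMTS2 was lost in 9 of the fits without 1 library, every one but those without D1 replicate 2 or D20+TGF-β replicate 2 or 3, with adjusted p-values up to 0.0249. For the other members the difference was not called, at 1.03 ± 0.66 for ADAMTS9 (edgeR adjusted p = 0.291), 0.97 ± 0.62 for ADAMTSL1 (edgeR adjusted p = 0.284), 0.63 ± 0.54 for ADAMTS5 (edgeR adjusted p = 0.435), 0.32 ± 0.46 for ADAMTS6 (edgeR adjusted p = 0.797) and −0.20 ± 0.17 for ADAMTS12 (edgeR adjusted p = 0.432). The value of ADAMTS5 was 0.14 without D1 replicate 2 and 0.94 without D20+TGF-β replicate 3, and that of ADAMTSL1 was 1.38 and 0.34 in the same order, none of them called. Without both libraries that stood apart, ADAMTS9 and ADAMTSL1 passed (edgeR adjusted p = 0.00383 and 0.00380). The value of ADAMTS6 turned to −0.14 without D20+TGF-β replicate 3.

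Of the other 18 ADAMTS family genes, 3 passed the filter. ADAMTS7, which like ADAMTS12 cuts cartilage oligomeric matrix protein, was at 16.9 ± 2.98 cpm in D1 (SD, n = 3 for these means), 16.5 ± 1.28 in D1+TGF-β, 35.3 ± 1.73 in D20 and 21.7 ± 4.63 in D20+TGF-β. It fell 1.63-fold with TGF-β at D20 (log2 fold change −0.71 ± 0.14, edgeR adjusted p = 0.00145) and rose 2.09-fold from D1 to D20 (1.06 ± 0.15, edgeR adjusted p = 4.65e-05), and its reads may be shared with a pseudogene copy. ADAMTSL4, a protein of fibrillin microfibrils, was at 27.4 ± 3.66, 19.2 ± 2.08, 40.6 ± 2.17 and 28.4 ± 2.54 cpm in the same order. It fell 1.43-fold with TGF-β at both times (edgeR adjusted p = 0.00503 at D1 and 0.00167 at D20). THSD4, a further microfibril protein, was at 205 ± 32.7, 144 ± 5.57, 258 ± 10.7 and 205 ± 12.9 cpm. It fell 1.42-fold at D1 (edgeR adjusted p = 0.00213), and its D20 difference of −0.33 ± 0.10 missed the threshold (edgeR adjusted p = 0.0154). Of these 3 genes, 2 were called lower with TGF-β at each time and 2 higher at D20 in each comparison of times, beside 6.50% and 14.7% of all genes called lower and 17.2% and 18.9% called higher, and 3 genes are too few to read a share from. The difference of responses of ADAMTS7 was −0.66 ± 0.21 and missed the threshold (edgeR adjusted p = 0.0390).

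Among the 15 family genes under the filter, ADAMTS8 and ADAMTS15 stood out, and they are named here after their values were seen. Both belong to the proteoglycan-cutting branch and lie back to back on chromosome 11 with 20035 bases between them. ADAMTS8 was at 7.30, 2.59 and 4.51 cpm in D1, 2.95, 5.22 and 3.91 cpm in D1+TGF-β, 66.3, 76.2 and 72.2 cpm in D20 and 27.0, 31.3 and 7.74 cpm in D20+TGF-β. ADAMTS15 was at 2.15, 1.13 and 2.72 cpm, 0.355, 0.340 and 0.118 cpm, 12.6, 15.9 and 16.8 cpm and 2.92, 4.52 and 1.53 cpm in the same order. In both genes the D20 flasks lay above all others, and the D20+TGF-β flasks lay between D20 and D1+TGF-β. Without a gene filter ADAMTS8 rose 14.5-fold from D1 to D20 (log2 fold change 3.86 ± 0.31, edgeR adjusted p = 1.36e-10) and fell 3.19-fold with TGF-β at D20 (−1.68 ± 0.26, edgeR adjusted p = 1.20e-05). Its D1 response of −0.16 ± 0.39 was not called and turned to 0.27 without D1 replicate 1. The lowest treated D20 flask of both genes was replicate 3, without which the D20 response of ADAMTS8 was −1.29. The difference of the responses of ADAMTS8 was −1.52 ± 0.47 and missed the threshold (edgeR adjusted p = 0.0332), but passed at −1.81 without D20+TGF-β replicate 2 (edgeR adjusted p = 0.00353) and at −1.15 without replicate 3 (edgeR adjusted p = 0.000346). ADAMTS15 rose 7.35-fold from D1 to D20 (2.88 ± 0.26, edgeR adjusted p = 1.14e-09) and fell with TGF-β by 6.62-fold at D1 (edgeR adjusted p = 0.000210) and 5.06-fold at D20 (edgeR adjusted p = 2.39e-08). Its D1 response rests on few counts, 1 to 6 per library in D1+TGF-β and 17 to 32 in D1. Per kilobase of exon, the proteoglycan-cutting genes in D20 were in the order ADAMTS1 at 81.3 cpm per kb, ADAMTS8 at 17.3, ADAMTS5 at 7.34, ADAMTS9 at 5.01, ADAMTS15 at 2.51 and ADAMTS4 at 0.113.

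The other family genes that this fit called were also named after their values were seen. ADAMTS4, the remaining classical aggrecanase, moved the other way. It was at 2.38 ± 0.543 cpm in D1, 4.19 ± 0.692 in D1+TGF-β, 1.17 ± 0.221 in D20 and 3.10 ± 0.486 in D20+TGF-β. It rose 2.65-fold with TGF-β at D20 (edgeR adjusted p = 0.000141) and fell 2.11-fold from D1 to D20 (edgeR adjusted p = 0.00265), with a D1 response of 0.76 ± 0.23 that missed the threshold (edgeR adjusted p = 0.0246). ADAMTS10, the relative of ADAMTS6, rose 2.19-fold with TGF-β at D1 (edgeR adjusted p = 0.00145), from 2.01 ± 0.565 to 4.50 ± 0.825 cpm, and 2.04-fold from D1 to D20 (edgeR adjusted p = 0.00122). ADAMTS14 rose by 1.27 ± 0.33 log2 units from D1 to D20 (edgeR adjusted p = 0.00367) and ADAMTS13, the protease of von Willebrand factor, by 0.91 ± 0.26 (edgeR adjusted p = 0.00785). PAPLN rose by 0.65 ± 0.18 from D1 to D20 (edgeR adjusted p = 0.00540) and by 0.63 ± 0.18 between the treated conditions (edgeR adjusted p = 0.00824). ADAMTS16, ADAMTS17, ADAMTS18, ADAMTS20, ADAMTSL2 and ADAMTSL3 had at most 6 counts in any library and were not called in any comparison. Over the 18 genes this fit called 4 at D1 and 5 at D20 with TGF-β, 5 between the treated conditions and 9 in D20 against D1, where 8.30%, 17.1%, 21.2% and 22.0% of all 20434 genes were called.

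**Figure D3:**
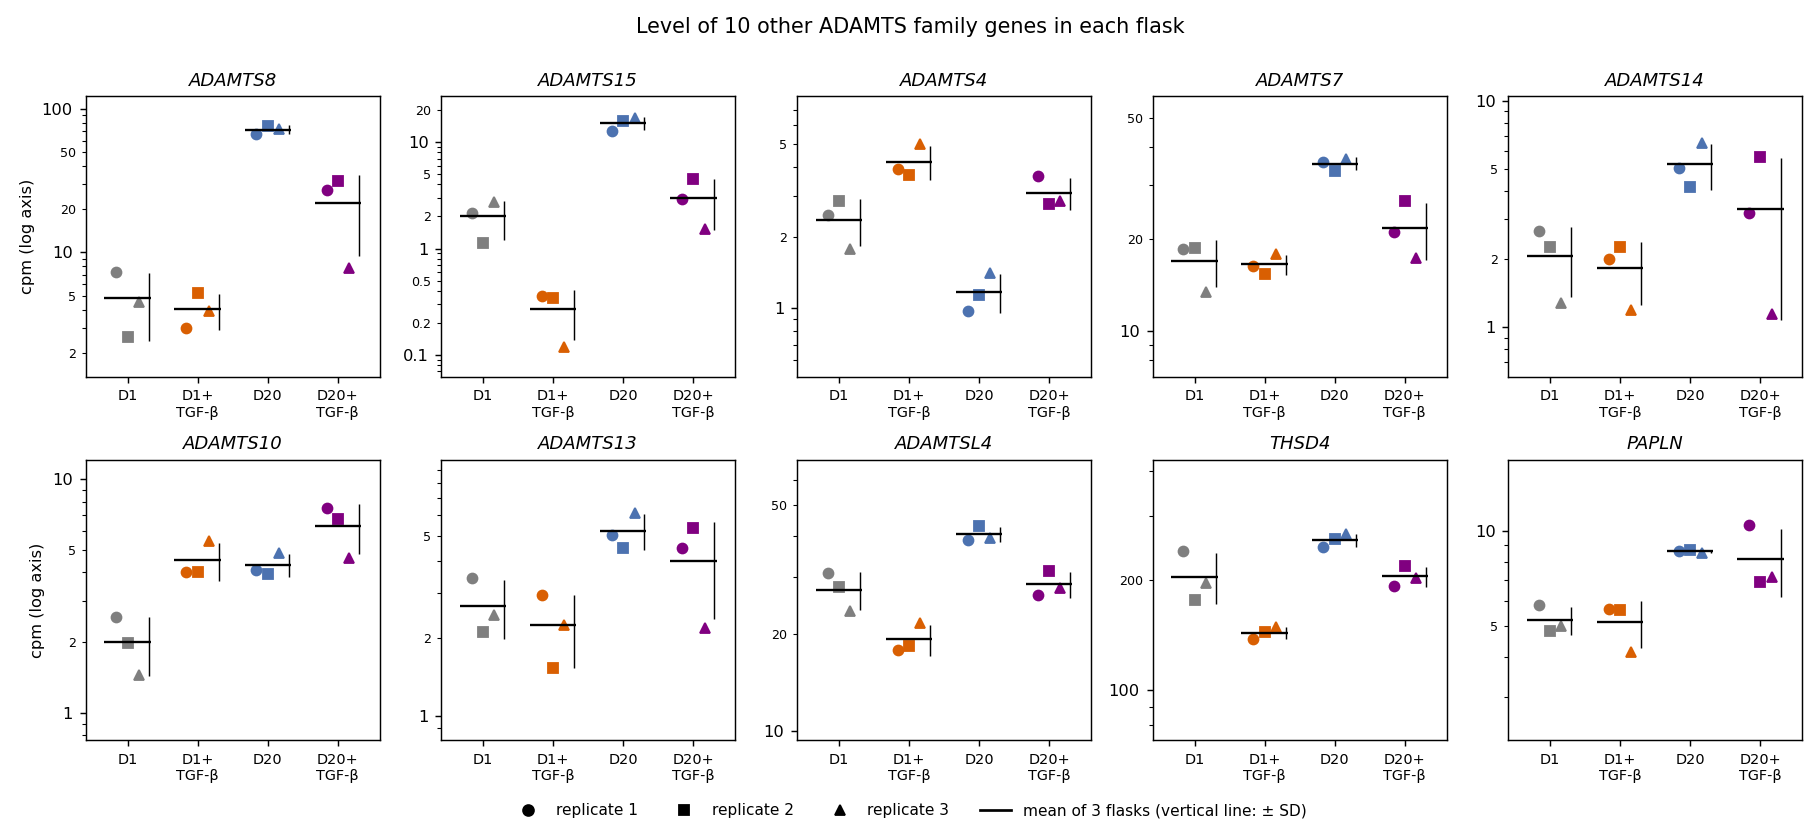
Level of 10 other ADAMTS family genes in each flask, in cpm on a log axis with a separate range per gene; shown are those called in any comparison of conditions in the fit without a gene filter. Points are flasks, horizontal lines means of 3 flasks and vertical lines ± SD. ADAMTS8 and ADAMTS15 were highest in D20, at means of 71.5 and 15.1 cpm, and ADAMTS4 lowest there, at 1.17 cpm.

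Genes that act with these proteases were listed by role, and 20 of 26 passed the filter. With TGF-β 8 were called at D1, all higher, and 11 at D20, 7 higher and 4 lower. Of all genes tested, 6.89% were called higher at D1, and 12.8% higher and 14.7% lower at D20. Of the 10 substrates 8 were tested, with 7 higher at D1 and 5 higher at D20. Versican and COL1A1 were among them at both times, aggrecan was not tested, and COL1A2 and COL3A1 were not called at D20. COL3A1 was at 414 ± 69.9 cpm in D1, 484 ± 29.2 in D1+TGF-β, 1387 ± 85.4 in D20 and 1193 ± 409 in D20+TGF-β. Versican (VCAN), the large matrix proteoglycan, rose from 214 ± 81.2 to 728 ± 6.41 cpm at D1 (log2 fold change 1.76 ± 0.19, edgeR adjusted p = 2.76e-05) and from 264 ± 23.0 to 886 ± 122 cpm at D20 (1.75 ± 0.19, edgeR adjusted p = 1.17e-05). Aggrecan (ACAN) was at a mean of at most 0.0977 cpm in any condition. Biglycan (BGN), a small proteoglycan, rose by 1.68 ± 0.12 at D1 and 2.53 ± 0.12 at D20 (edgeR adjusted p = 4.69e-07 and 7.40e-09). Fibronectin (FN1) rose by 1.34 ± 0.13 and 1.95 ± 0.13 (edgeR adjusted p = 1.05e-05 and 1.57e-07). COL1A1, the procollagen that ADAMTS2 trims, rose by 1.09 ± 0.12 and 0.99 ± 0.12 (edgeR adjusted p = 2.50e-05 and 2.39e-05), and COL5A1 by 1.87 ± 0.13 and 0.87 ± 0.13 (edgeR adjusted p = 4.69e-07 and 0.000138). Fibrillin 1 (FBN1) rose by 1.08 ± 0.10 at D1 (edgeR adjusted p = 4.77e-06), and its D20 difference of 0.34 ± 0.09 missed the threshold (edgeR adjusted p = 0.0109). Versican was thus higher with TGF-β at both times, while the genes of the branch that cuts it differed in their calls. ADAMTS9 was called lower at both times, ADAMTS1 at D20 and ADAMTS5 at neither. In the fit without a gene filter ADAMTS1 was called lower at D1 too. The same fit called ADAMTS15 lower at both times, at D1 on few counts, ADAMTS8 lower at D20 and ADAMTS4 higher at D20.

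Cartilage oligomeric matrix protein (COMP), the substrate of ADAMTS7 and ADAMTS12, did not pass the filter and is named after its values were seen. It was at 0.725 ± 0.225 cpm in D1, 6.66 ± 1.11 in D1+TGF-β, 0.699 ± 0.366 in D20 and 8.52 ± 4.32 in D20+TGF-β. Without a gene filter it rose by 3.19 ± 0.38 log2 units at D1 and 3.53 ± 0.36 at D20 (edgeR adjusted p = 7.05e-07 and 1.70e-08). Its D20+TGF-β flasks were at 11.1, 10.9 and 3.54 cpm, with replicate 3 the lowest.

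Of 5 inhibitors 4 were tested. TIMP3 rose from 433 ± 73.0 to 1206 ± 233 cpm at D1 (log2 fold change 1.48 ± 0.15, edgeR adjusted p = 1.62e-05) and differed by −0.13 ± 0.15 at D20 (edgeR adjusted p = 0.526), where its untreated level was 743 ± 13.9 cpm. The difference of its responses was called, at −1.60 ± 0.21 (edgeR adjusted p = 0.000219). TIMP1 was at 1108, 1071 and 692 cpm in D20+TGF-β, with replicate 3 nearest to the D20 flasks at 600.3, 658 and 663 cpm. It rose by 0.58 ± 0.15 at D20 (edgeR adjusted p = 0.00637) and differed by 0.14 ± 0.15 at D1 (edgeR adjusted p = 0.513). A2M, the protease-trapping α2-macroglobulin, fell from 488 ± 34.0 to 19.6 ± 8.41 cpm at D20 (−4.63 ± 0.33, edgeR adjusted p = 1.97e-07), with a D1 difference of −0.75 ± 0.28 (edgeR adjusted p = 0.0629).

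Of the 6 maturation genes 4 were tested, and 2 fell with TGF-β at D20. These were PCSK7, a propeptide convertase, by 0.77 ± 0.09 log2 units (edgeR adjusted p = 1.81e-05), and POFUT2, which adds O-fucose to thrombospondin repeats, by 0.48 ± 0.11 (edgeR adjusted p = 0.00394). Neither was called at D1, with differences of 0.21 ± 0.09 and 0.01 ± 0.11 (edgeR adjusted p = 0.0981 and 0.961). PCOLCE, which enhances cleavage of the carboxyl propeptide of procollagen, rose by 0.49 ± 0.08 at D20 (edgeR adjusted p = 0.000396), and BMP1, the protease it enhances, differed by −0.03 ± 0.13 (edgeR adjusted p = 0.862). Fibulin 1 (FBLN1), a cofactor of ADAMTS1, fell by 0.52 ± 0.11 at D20 (edgeR adjusted p = 0.00143). LRP1, the endocytic receptor that clears ADAMTS5, was at 1453 ± 318 to 1861 ± 106 cpm in the 4 conditions and was not called in any comparison. In the comparisons of times, 3 partner genes were called higher and 4 lower with TGF-β, and 7 higher and 2 lower without it. These were 7 and 9 of 20, beside 34.8% and 36.4% called of all genes tested, and nothing particular to the partner genes is read from them. The median log2 fold change of the 20 was 0.25 at D1 and 0.07 at D20, against −0.02 and 0.01 over all genes tested.

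**Figure D4:**
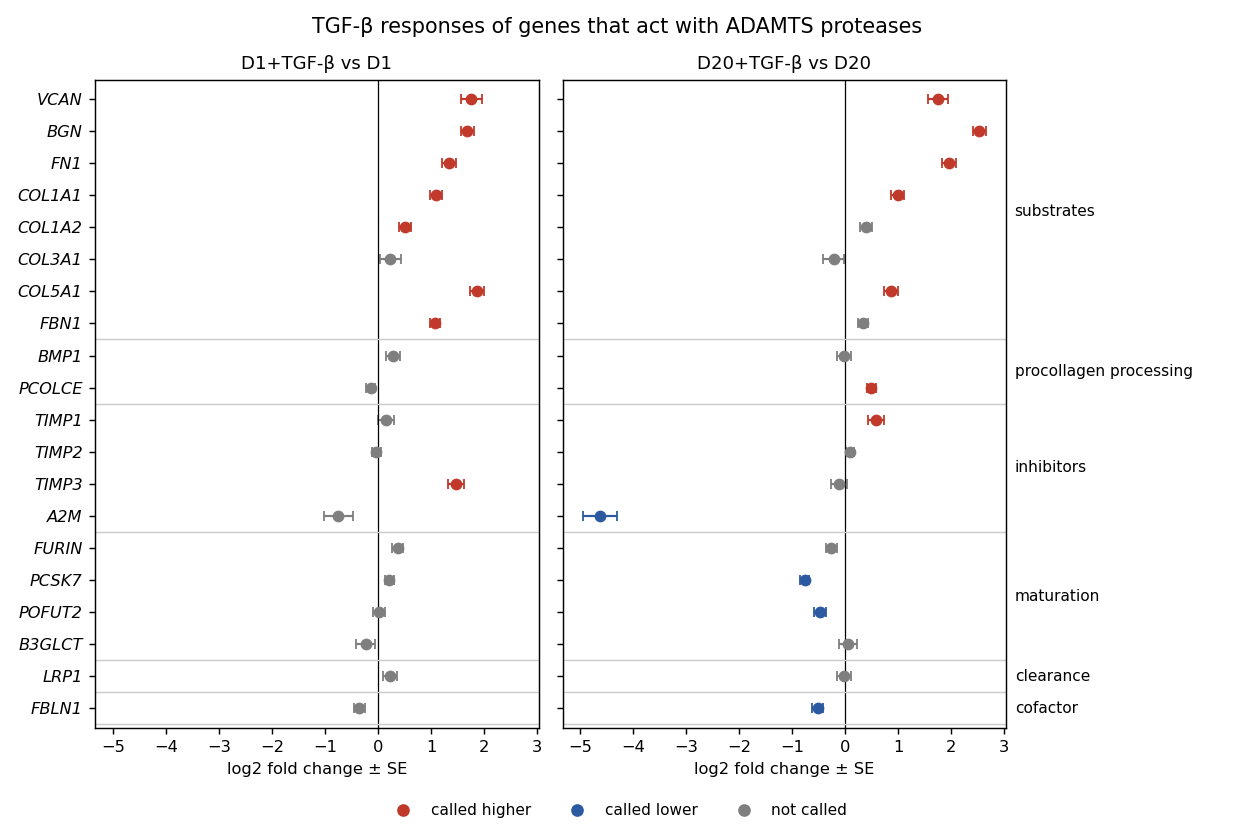
Log2 fold change with its standard error for the 20 tested partner genes, with TGF-β at D1 and at D20, grouped by role. Red marks genes called higher, blue genes called lower and grey genes not called. Of 8 substrates, 7 were higher at D1 and 5 at D20, and A2M lay at −4.63 at D20.

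The genes most like the 3 members with the largest differences were sought by the Pearson correlation of log2 cpm over the 12 libraries. These libraries share 4 conditions and are no independent points. Only genes that passed the 10 cpm filter were searched, so that ADAMTS6, ADAMTS8 and ADAMTS15 could not be found. ADAMTS19 was nearest to CD4, a receptor best known from T cells and macrophages, with r = 0.994, INMT, a methyltransferase, with r = 0.987, and CHRM2, a muscarinic receptor, with r = 0.986. CD4 was at means of 23.6, 14.6, 59.4 and 16.8 cpm in the conditions D1 and D1+TGF-β and then D20 and D20+TGF-β. ADAMTS9 was nearest to ARHGAP28 with r = 0.996, FAM20C, the kinase of secreted proteins, with r = 0.993, and COL4A5, a basement membrane collagen chain, with r = 0.989. ADAMTS5 was nearest to FAM117B with r = 0.988, PDGFD, a growth factor for fibroblasts, with r = 0.983, and ZRANB1 with r = 0.982. Among the 7 tested members themselves, ADAMTS1 and ADAMTS19 were the most alike, with r = 0.95, and ADAMTS9 and ADAMTSL1 the most opposed, with r = −0.91.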

How the data were processed

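RNA of 12 flasks of WI-38 cells was made into libraries with a directional kit and sequenced as paired ends. Reads were trimmed by the authors (Trimmomatic) and aligned to hg19 (Rsubread). The authors deposited whole-number counts per Entrez gene for 48 lanes, 4 per library, and a table of log2 values from limma-voom for 9412 genes, which served here only to link symbols to Entrez identifiers. The counting program, annotation and strand setting are not given in the sources used here.

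The lanes of a library were summed. Genes that reached 10 cpm in 6 or more of 12 libraries were fitted in edgeR 4.0.16 (R 4.3.3) with TMM factors, 1 mean per condition over all 12 libraries and the quasi-likelihood test, with Benjamini-Hochberg adjustment over 9490 genes and a threshold of 0.01. The common biological coefficient of variation was 9.35%. ADAMTS6 and other low genes were taken from the same fit without a gene filter. The test was checked on simulated counts in which all genes had 1 spread and no library stood apart. That check does not cover libraries that stand apart or genes of wider spread. The members and all gene lists were chosen with earlier results of these data known. Named were all 8 members, each family gene that passed the filter, and per partner role the 2 genes with the smallest adjusted p at D20 and any other that TGF-β moved by over 1 log2 unit with a call. COMP and the family genes under the filter that carry values were named after their values were seen. Alternatives were DESeq2 1.42.0, limma-voom 3.58.1 on libraries or lanes, RLE or no composition factors, no gene filter, only the libraries compared, the replicate number as a block and each library left out. The filterByExpr function, leaving out both libraries that stood apart, and the alternatives of the fit without a gene filter were added after seeing the data. Exon lengths, positions and coding sequences were read from GENCODE gene models on GRCh37 and promoters from RefSeq on GRCh38.p14.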

Additional observations from a re-analysis of the deposited data

Results flagged for a closer look

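The response to TGF-β differed between D20 and D1 by a test of the difference itself in 3 members. The log2 response at D20 minus that at D1 was −2.83 for ADAMTS19, −1.57 for ADAMTS1 and −0.68 for ADAMTS2 (edgeR adjusted p = 2.73e-05, 0.00180 and 0.00760). Over the alternatives it ran from −3.03 to −2.46, from −1.83 to −1.38 and from −0.77 to −0.56, and the call was lost under some of them for ADAMTS2 only.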

How the results depend on the processing

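Over 857 alternative values of the members' log2 fold changes, 786 kept their direction and side of the threshold, 20 passed it anew, 45 no longer passed it and 6 changed sign, none of these a called value. ADAMTS1 between the treated conditions ran from −0.28 to 0.071 over the fits without a library, was 0.071 without D20+TGF-β replicate 3 and 0.058 without this and D1 replicate 2. ADAMTS2 at D1 ran from −0.0086, without D1 replicate 3, to 0.17. ADAMTS19 between the treated conditions ran from −0.018, without D20+TGF-β replicate 2, to 0.38. The difference of responses of ADAMTS6 was −0.14 without D1 replicate 3 and −0.14 without D20+TGF-β replicate 3. ADAMTS8 at D1 was 0.27 without D1 replicate 1 and 0.0045 without D1+TGF-β replicate 1.

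With the 48 lanes as samples, which repeat the same RNA, limma-voom called 6 members at D1 and 5 between the treated conditions, 14, 15, 19 and 15 partner genes at D1, between the treated conditions, in D20 against D1 and in the difference of responses, and 1 other family gene in that difference. Without a gene filter 4 members were called at D1, and 4, 5, 5 and 9 other family genes in the 4 comparisons, against 4, 5, 4 and 7 with filterByExpr. All 18 other family genes were tested without a filter, and 3 in the main fit. For ADAMTS1 at D1, tested in both, the standard error was 0.158 without a filter and 0.199 with it. With only the libraries of the comparison, 0 other family genes were called at D1. Without both libraries that stood apart, 5 members were called at D1, 4 between the treated conditions and 5 in the difference of responses. The share of all genes called was counted only for the main fit and the fit without a gene filter. Shifts in the other fits, here and below, are therefore not read as particular to the listed genes. The cause of these shifts was not tested.

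Leaving out 1 library at a time, or both that stood apart, members called numbered 1 to 5 at D1, 4 to 5 at D20, 2 to 4 between the treated conditions, 4 to 7 in D20 against D1 and 2 to 5 in the difference of responses. Other family genes numbered 0 to 2, 1 to 3, 2 to 3, 2 to 3 and 0 to 0 (edgeR gave 1 of the 3 tested an unadjusted p under 0.05 in the last, and ADAMTS8, which only the fit without a gene filter tested, passed there without D20+TGF-β replicate 2 or 3), and partner genes 7 to 12, 9 to 13, 6 to 10, 6 to 13 and 6 to 10. The lowest counts of members came without D1+TGF-β replicate 1 or 2 at D1 (1 member each) and without D1 replicate 3 or any D20 flask in D20 against D1 (4 members each).

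Replicate numbers were shared by the conditions. The 18 pairs of libraries with the same number had correlations of −0.22 to 0.32 in their deviations, 4 of them over 0.1. Pairs with different numbers ran from −0.36 to 0.24. With 3 flasks per condition these values cannot decide whether the numbers pair the flasks, and the main fit took them as unpaired. With the replicate block 2, 5, 2, 7 and 3 members were called in the 4 comparisons and the difference of responses. The difference of responses was not run on only the libraries of a comparison, since it uses all 12. Depth limits genes of a few counts per library.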
